A study of Danio rerio with 32 samples.

Results

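The positions compared here were all mismatches between RNA and parental DNA listed for zebrafish offspring at 3.5 hpf (hours post fertilization, high stage) and at the 16-cell stage. A site counted as the same at both stages when its chromosome, position and change agreed. The 3.5 hpf list held 24976 sites and the 16-cell list 25236, which made 32486 different sites of the 44007 in the 3 lists of the series. The third list, from 5.3 hpf, was used only to see which sites recurred later.

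The study sequenced the DNA of a female and a male from fin clips and the RNA of their offspring. All embryos were uninjected and of the wild-type ABTL strain, and at least 20 whole embryos were pooled into 1 library for each stage. The paper names a TruSeq RNA preparation for the offspring, and describes rRNA depletion in place of poly(A) selection for early embryos. The authors treated the reads as unstranded, though the sample labels name a stranded kit. Each stage had 1 library and hence no replicate spread, so the differences below carry no test. Shares are given with 95% Wilson intervals, which cover counting error alone and treat sites as independent. Sites close together can lie on the same reads, so for clustered sites the intervals can be too narrow. A whole-embryo pool is a mixture of all cells of the embryo, and the stage and the library cannot be told apart.

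Adar enzymes deaminate adenosine to inosine in double-stranded RNA. Reverse transcription reads inosine as guanosine, so that editing appears as an A>G mismatch, or as T>C on the reference where the transcript comes from the minus strand. At the 16-cell stage the embryo runs on RNA that the mother stored in the egg, and around the mid-blastula transition its own genome becomes active while maternal RNA is being cleared. In many animals editing falls in dense clusters, since a long double-stranded stretch offers the enzyme many adenosines.

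A>G and T>C sites are called A>G sites from here on. They may include mismatches that editing did not make, such as polymorphisms, and the lists do not separate these. The 10 remaining kinds of change, which deamination of adenosine does not make, served as the background within the same libraries. The frequency of a site is the percentage of RNA reads with the changed base. The lowest frequency in either list was 20%, the limit the authors set. A site missing from a list may have been unedited, edited below that limit or covered by too few reads, and these cannot be told apart because the lists give no coverage. The depth behind each frequency is therefore unknown, and no interval is given for a single site. The study's own summary of its libraries has more reads for the 16-cell library than for the 3.5 hpf library, and the part of that difference in the results was not tested.

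The number of A>G sites listed was nearly the same at both stages. There were 19108 A>G sites at 3.5 hpf, or 76.5% of that list (interval 76.0% to 77.0%), against 19439 at the 16-cell stage, or 77.0% (76.5% to 77.5%). Sites with another change numbered 5868 at 3.5 hpf and 5797 at the 16-cell stage. T>C made up 53.1% of the A>G sites at 3.5 hpf and 53.1% at the 16-cell stage, so that both orientations were close to balanced.

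Most A>G sites were common to the stages. Both lists held 14199 of them, which was 74.3% of the 3.5 hpf sites, 73.0% of the 16-cell sites and 58.3% of the 24348 sites in either list (57.7% to 58.9%). A further 4909 were listed at 3.5 hpf but not at the 16-cell stage, and 5240 at the 16-cell stage but not at 3.5 hpf. Sites with another change recurred less often, with 3527 of 8138 in both lists, or 43.3% (42.3% to 44.4%). Taken 1 change at a time, A>G reached 56.8% and T>C 59.6%, while the other changes lay between 39.5% for A>T and 53.5% for C>G.

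Sites of both stages were also the ones most often found later. Of the A>G sites in both lists, 65.0% were listed again at 5.3 hpf, against 22.2% of those listed at 3.5 hpf alone and 19.4% of those listed at the 16-cell stage alone. The other changes had much the same steps, with 60.7% for sites of both lists, 20.2% for 3.5 hpf alone and 16.5% for the 16-cell stage alone. Recurrence at 5.3 hpf thus separated shared from unshared sites both for A>G and for the pooled other changes.

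Whether a site appeared at both stages went with its frequency. The median A>G frequency was 37.5% at 3.5 hpf and 37.5% at the 16-cell stage over all listed sites, and over the shared sites it was 43.1% at 3.5 hpf and 42.7% at the 16-cell stage. Sites of 1 stage sat close to the lower limit, with medians of 26.1% (quartiles 21.8% and 34.6%) at 3.5 hpf and 27.3% (22.2% and 38.9%) at the 16-cell stage. Among these, 64.0% at 3.5 hpf and 57.4% at the 16-cell stage were under 30%. Only 927 of the sites listed at 3.5 hpf alone (18.9%) and 1287 of those listed at the 16-cell stage alone (24.6%) had a frequency of 40% or more.

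Of 3.5 hpf A>G sites with a frequency from 0.2 to 0.3, 51.6% were also listed at the 16-cell stage, and of 16-cell sites in that bin 54.1% were also listed at 3.5 hpf. In the bin from 0.6 to 0.8 these shares were 92.3% for 3.5 hpf sites and 87.8% for 16-cell sites. The step was present for the other changes as well, at lower values, with 36.8% and 81.5% in these bins for 3.5 hpf sites and 39.0% and 77.5% for 16-cell sites. From a frequency of 0.3 upwards, a larger share of 3.5 hpf A>G sites was found at the 16-cell stage than of 16-cell sites at 3.5 hpf. The other changes had this order from 0.4 upwards, by little in the bin from 0.8 to under 1 (81.8% and 81.7%). In the lowest bin the order was the reverse for both kinds.

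Sites at which every read carried the changed base behaved differently from sites just below. They made up 3.31% of A>G sites at 3.5 hpf and 3.44% at the 16-cell stage, against 15.5% of the other changes at 3.5 hpf and 17.3% at the 16-cell stage. Their recurrence was 81.5% for 3.5 hpf A>G sites and 76.7% for 16-cell A>G sites, under that of the bin from 0.8 upwards (92.3% for 3.5 hpf sites and 88.5% for 16-cell sites). At a frequency of exactly 1 the A>G sites and the other changes had overlapping intervals at both stages.

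**Figure D1:**
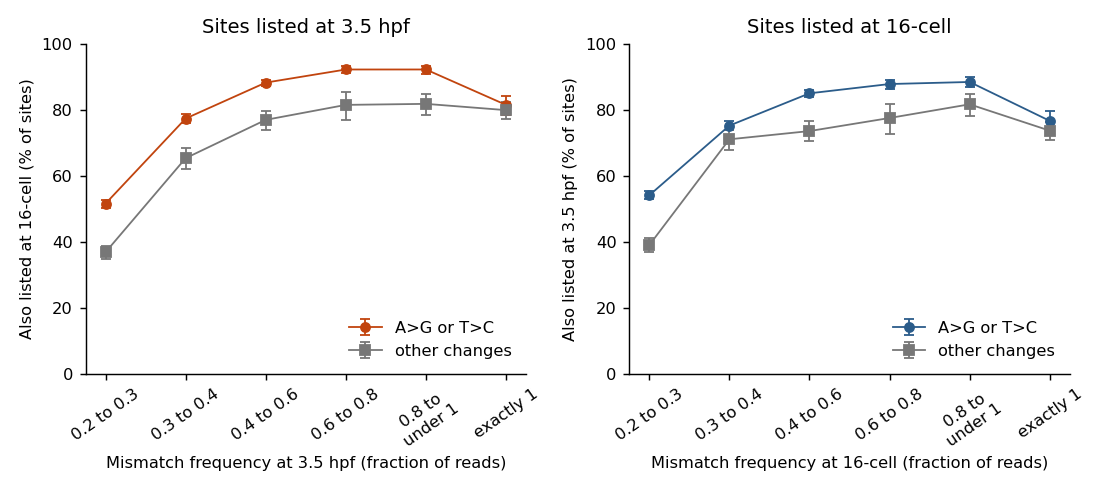
Share of the sites listed at 3.5 hpf (left) and at the 16-cell stage (right) that were also listed at the other stage, in percent, by the site's mismatch frequency as a fraction of reads. Coloured circles are A>G or T>C sites, grey squares are the other changes, and bars are 95% Wilson intervals. The share for A>G sites climbs from 51.6% at 3.5 hpf and 54.1% at the 16-cell stage in the lowest bin to over 80% in the middle bins, and drops again for sites at exactly 1.

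At the shared sites, frequencies hardly differed on average. The 14199 shared A>G sites had a mean frequency of 49.3% at 3.5 hpf and 48.9% at the 16-cell stage. The difference, 3.5 hpf minus 16-cell, was 0.454 percentage points with an SD over sites of 11.0 and a median of 0. Of these sites, 7057 were higher at 3.5 hpf, 6613 were lower and 529 were equal. As a description over sites that share 2 libraries, Pearson's r was 0.884 and Spearman's rho 0.831 (n = 14199). At shared sites with another change the mean difference was 0.0283 points (SD 10.2, n = 3527).

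Large shifts at single sites were present in both directions. An A>G frequency at least 10 points higher at 3.5 hpf was found at 2239 shared sites, or 15.8%, where 14.9% of the shared sites of any change were that much higher. At 1956 A>G sites, or 13.8%, it was at least 10 points lower, where 13.3% of the shared sites of any change were that much lower. Most of the shared sites of any change are A>G sites, and among those with another change 11.5% were that much higher at 3.5 hpf and 11.6% that much lower. Pairs at exactly 1 in both lists have no difference, which lowers these shares. They were 606 of the 3527 shared sites with another change, against 342 of the 14199 shared A>G sites. The range over A>G sites went from -61.9 to 53.6 points. Both extremes were single sites chosen after their values were seen. The T>C site at position 2970044 of chromosome 20 (GRCz10), in the window of ppil4, had 21.4% at 3.5 hpf and 83.3% at the 16-cell stage. The A>G site at position 2905814 of chromosome 11 had 78.6% at 3.5 hpf and 25.0% at the 16-cell stage.

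The spread of the differences depended on the level. Among the bins below 1 it was narrowest where the mean of both stages was between 0.2 and 0.3 (SD 6.32 points, 3250 sites). It was widest between 0.4 and 0.6 (SD 13.8, 3738 sites). No listed frequency is under 0.2 or over 1, which by itself limits how far a pair can differ in the lowest and highest bins. The mean difference stayed between 0.152 and 0.922 points in every bin below 1. The SD was larger for A>G sites than for the other changes in the bins from 0.2 to 0.3 (6.32 and 5.99 points), from 0.3 to 0.4 (11.14 and 11.08) and from 0.8 upwards (8.80 and 8.12), and smaller in those from 0.4 to 0.6 (13.8 and 15.4) and from 0.6 to 0.8 (13.0 and 17.1).

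Clustering set A>G sites apart from all other changes at both stages. Sites of the same change were chained into clusters when neighbours lay at most 100 bp apart. By this count 71.3% of A>G sites at 3.5 hpf (70.6% to 71.9%) and 71.5% at the 16-cell stage (70.9% to 72.1%) stood in clusters of 5 or more, against 0.426% of the other changes at 3.5 hpf and 0.535% at the 16-cell stage. Of neighbouring A>G sites within 100 bp, 98.4% at 3.5 hpf and 98.2% at the 16-cell stage had the same change, and their median spacing was 6 bp at 3.5 hpf and 6 bp at the 16-cell stage. A>G made up 99.8% of all listed sites in clusters of 5 or more at 3.5 hpf and 99.8% at the 16-cell stage, but 29.0% of the single sites at 3.5 hpf (27.9% to 30.1%) and 29.2% at the 16-cell stage (28.1% to 30.3%).

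When the lists were joined and clustered, sites in larger clusters were more often shared. Of single A>G sites, 41.4% (39.3% to 43.5%) were in both lists, a value that overlaps the 40.8% (39.6% to 42.0%) of single sites with another change. The share was 46.1% in clusters of 2 to 4 sites, 54.7% in those of 5 to 9, 65.2% in those of 10 to 19 and 68.2% in those of 20 or more. Cluster size was counted over both lists, so a cluster with more sites had more chances to include both stages. The likeness of single sites depended on how a neighbour was defined, since without a site of any change within 100 bp the share was 37.4% for A>G and 25.3% for other changes.

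The step with cluster size was also present within ranges of frequency. Among A>G sites whose frequency stayed under 0.4 in each list, 27.8% of single sites (25.5% to 30.2%) and 42.8% of sites in clusters of 5 or more (41.8% to 43.8%) were shared. Among sites with 0.4 or more in a list, these shares were 65.7% (62.4% to 69.0%) for single sites and 83.8% (83.0% to 84.6%) for clusters of 5 or more. Single sites with another change and a frequency of 0.4 or more had 64.5% (62.6% to 66.4%), close to single A>G sites. Recurrence at 5.3 hpf had the same order, with 36.3% of single A>G sites and 49.9% of those in clusters of 5 or more listed again.

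Clusters themselves were nearly always present at both stages once they were large. All 204 clusters of 20 or more sites and 439 of the 443 with 10 to 19 sites held a site of each stage, and so did 91.8% of those with 5 to 9 and 74.7% of those with 2 to 4. Since 1 site of each list was enough, this share goes up with cluster size by counting, and nothing more is read from the rise. Of the A>G sites listed at 1 stage, 75.1% at 3.5 hpf and 71.9% at the 16-cell stage lay in a cluster that also held a site of the other stage, against 5.38% of such sites with another change at 3.5 hpf and 6.61% at the 16-cell stage. A single site cannot lie in such a cluster. Of the 1-stage sites with another change, 81.7% at 3.5 hpf and 82.3% at the 16-cell stage were single. For A>G sites this was 13.3% at 3.5 hpf and 12.3% at the 16-cell stage, so the contrast largely restates that A>G sites cluster. Most A>G sites listed at 1 stage thus lay in clusters that both stages shared. Among the 1489 clusters of 5 or more sites, 610 had more sites at 3.5 hpf, 586 had more at the 16-cell stage and 293 had the same number.

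**Figure D2:**
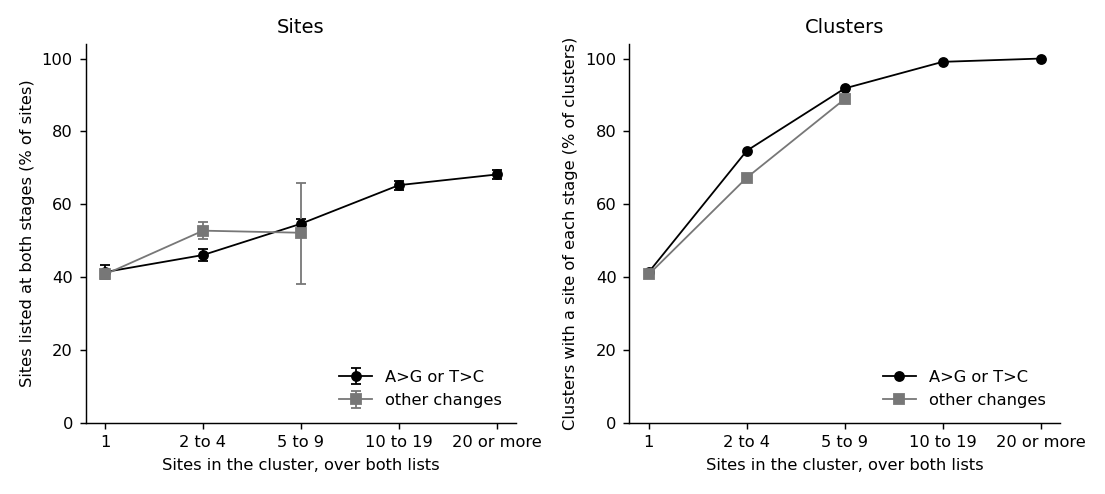
Left, the percentage of sites listed at both stages, and right, the percentage of clusters that held a site of each stage, by the number of sites in the cluster over both lists. Black circles are A>G or T>C sites, grey squares are the other changes, and bars on the left are 95% Wilson intervals. Shared A>G sites go from 41.4% of single sites to 68.2% in clusters of 20 or more, while shared clusters go from 41.4% to 100%. A cluster with more sites has more chances to hold a site of each stage, so the rise on the right follows from counting.

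The largest clusters gave the same picture from the inside. The largest, on chromosome 20 from 53348591 to 53349755, held 134 T>C sites, 107 of them at 3.5 hpf and 124 at the 16-cell stage, and lay in none of the 3'-UTR windows described below. Its median frequency was 40.0% at 3.5 hpf and 38.7% at the 16-cell stage, and 21 of its sites were listed at 5.3 hpf. A cluster of 127 A>G sites on chromosome 19 (173740 to 175365) lay in the windows of rnf139, which encodes a ubiquitin ligase of the endoplasmic reticulum, and tatdn1, with 93 sites at 3.5 hpf, 96 at the 16-cell stage and 62 in both. On chromosome 16 (11454211 to 11455310) the window of the zinc finger gene znf574 held a cluster of 107 A>G sites, 91 at 3.5 hpf and 96 at the 16-cell stage, and 80 were shared. The remaining clusters among the 5 largest, of 114 sites on chromosome 21 in the window of ik and of 81 sites on chromosome 11 in that of b3galt6, also had fewer sites at 3.5 hpf (76 and 60) than at the 16-cell stage (83 and 68). In all 5 the later list was the shorter, and their medians differed by less than 3 points. Of the 204 clusters of 20 or more sites, 86 had more at 3.5 hpf, 89 had more at the 16-cell stage and 29 were equal.

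Clusters of 5 or more sites found at 1 stage were few, with 32 at 3.5 hpf alone and 41 at the 16-cell stage alone. The largest at 3.5 hpf alone had 10 sites within 69 bp on chromosome 15, in the window of tyr, which encodes tyrosinase of melanin synthesis. Their frequencies at 3.5 hpf went from 20.0% to 100%, with a median of 50.0%. A cluster of 9 sites in the window of cabin1 on chromosome 8 followed, with a median of 25.0% at 3.5 hpf. The next, of 8 sites from 17115035 to 17115066 on chromosome 8, lay in no window and had a median of 41.4% at 3.5 hpf. At the 16-cell stage alone the largest had 11 sites, on chromosome 17 from 8072428 to 8072589 in the overlapping windows of ahi1 and slc18b1, with a median of 42.9%. An equally large cluster on chromosome 7 had a median of 40.0% at the 16-cell stage, and 1 of 10 sites on chromosome 12 had a median of 53.9%. Of these 6 clusters, the one of 8 sites on chromosome 8 had 2 sites listed at 5.3 hpf, and the tyr, cabin1, ahi1, chromosome 7 and chromosome 12 clusters had none.

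The authors listed windows 5000 bp long at the 3'-UTR of each gene with at least a pair of edited positions, and 685 of these were listed for one or both of the stages. Since the windows were picked for sites in these lists, the counts in them are a description. They held 8685 A>G sites at 3.5 hpf, or 45.5% of that list (44.7% to 46.2%), against 8786 at the 16-cell stage, or 45.2% (44.5% to 45.9%). Of the sites with another change, 10.7% lay in the windows at 3.5 hpf and 10.7% at the 16-cell stage. The change had the orientation of the gene at 97.3% of the windows' A>G sites at 3.5 hpf and at 97.4% at the 16-cell stage. Within the windows 61.6% of A>G sites in either list were shared (60.7% to 62.5%), and outside them 55.7% (54.8% to 56.5%).

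Gene by gene the site counts of the stages ran close together. There were more sites at 3.5 hpf in 282 windows, fewer in 282 and the same number in 121, and in 67.9% of windows the counts were within 2 of each other. Over the 685 windows, as a description of 1 library for each stage, Pearson's r was 0.976 and Spearman's rho 0.882. Among the 486 windows with at least 5 different sites, 63 (13.0%) had at least 1.5 times as many at 3.5 hpf and 50 (10.3%) at least 1.5 times as many at the 16-cell stage. These are the shares against which the gene lists below are read.

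**Figure D3:**
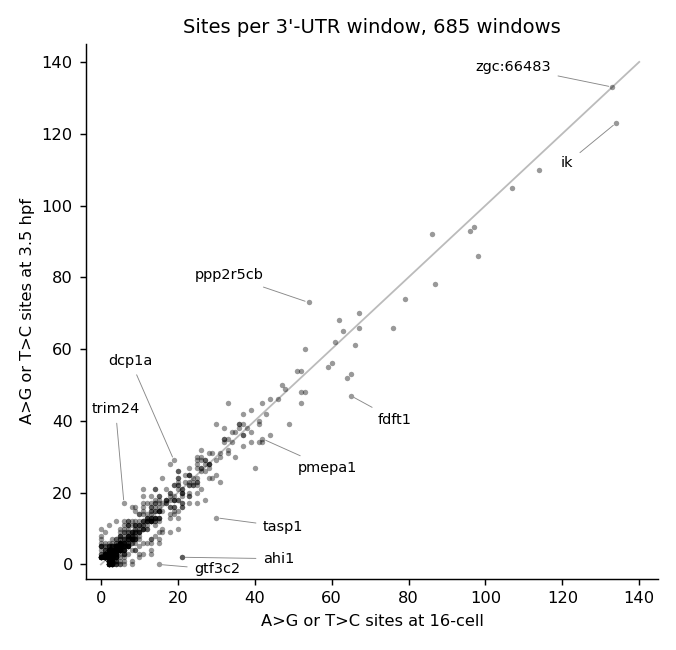
Editing site count at 3.5 hpf (vertical axis) against the 16-cell stage (horizontal axis) in each of the 685 windows at 3'-UTRs, 1 point for each window, with the line of equal counts. Most windows lie along the line up to zgc:66483 and ik, with ppp2r5cb, dcp1a and trim24 above it and fdft1, tasp1, ahi1 and gtf3c2 below it.

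The windows with the most A>G sites were much alike at both stages. That of ik, which encodes a component of the spliceosome, had 123 sites at 3.5 hpf and 134 at the 16-cell stage, and 73 were shared. Almost all of them were T>C on a gene of the plus strand, so that none at 3.5 hpf and 6 at the 16-cell stage had the orientation of ik. The window of zgc:66483 had 133 sites at 3.5 hpf and 133 at the 16-cell stage, with 123 in both lists, and its shared sites had medians of 54.1% at 3.5 hpf and 54.5% at the 16-cell stage. For ubald1b there were 110 sites at 3.5 hpf and 114 at the 16-cell stage, and for znf574 there were 105 at 3.5 hpf and 107 at the 16-cell stage. These windows differed more in how many sites recurred (73 of 184 different sites in ik, 123 of 143 in zgc:66483) than in how many were listed.

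The largest surplus of sites at 3.5 hpf was in ppp2r5cb, a regulatory subunit of protein phosphatase 2A, with 73 sites at 3.5 hpf and 54 at the 16-cell stage. Its 46 shared sites had a median difference of 4.17 points, with 27 higher and 19 lower at 3.5 hpf. In the window of aass, an enzyme of lysine breakdown, there were 45 sites at 3.5 hpf and 33 at the 16-cell stage, and 20 of 27 shared sites were higher at 3.5 hpf. In both genes the later stage had more sites and, by the median difference, higher frequencies at the shared ones.

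Few sites recurred in trim24, a transcriptional co-regulator, which had 17 sites at 3.5 hpf and 6 at the 16-cell stage with only 3 in common. Between positions 72729934 and 72730034 of chromosome 4 the 14 sites listed at 3.5 hpf alone had frequencies of 20.0% to 85.7%, and none was listed at the 16-cell stage. Of the 3 shared sites, 2 were higher at 3.5 hpf. They had 40.0% at 3.5 hpf and 22.7% at the 16-cell stage at 72729874, and 55.6% and 28.6% at 72729913. The last site of the window, at 72730082, was lower, with 33.3% at 3.5 hpf and 69.2% at the 16-cell stage. The sites at 72729881, 72729914 and 72729920 were listed at the 16-cell stage alone. The surplus of sites in trim24 thus lay in a stretch listed at 3.5 hpf alone. The window of zgc:56039 kept all 11 sites of the 16-cell stage and had 21 at 3.5 hpf.

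The largest deficits at 3.5 hpf were in the overlapping windows of ahi1, needed at the base of cilia, and slc18b1, which share their sites, with 2 sites at 3.5 hpf and 21 at the 16-cell stage. Of these 21 sites, 11 had the orientation of ahi1 and 10 that of slc18b1. The window of fdft1, the squalene synthase gene, had 47 sites at 3.5 hpf and 65 at the 16-cell stage, and its 35 shared sites were balanced, with 16 higher and 16 lower at 3.5 hpf. For tasp1, which encodes a protease that cleaves MLL proteins, there were 13 sites at 3.5 hpf and 30 at the 16-cell stage. The 2 sites of these overlapping windows that stayed both had the orientation of slc18b1, so none with that of ahi1 was listed at 3.5 hpf. Both were lower at 3.5 hpf, with a median difference of -8.64 points. Their median at 3.5 hpf was 20.0%, the lower limit of the lists. The shared sites had a median difference of 0 in fdft1 and of 2.65 points in tasp1.

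The window of gtf3c2, a subunit of the transcription factor TFIIIC, had no site at 3.5 hpf and 15 at the 16-cell stage. They stood in a pair of groups. At the 16-cell stage the 8 sites between 38682862 and 38682895 of chromosome 20 had frequencies from 31.6% to 83.3%, and the 7 between 38683238 and 38683265 had 20.0% to 70.6%. None of these 15 sites was listed at 5.3 hpf. A total of 28 windows had no site at 3.5 hpf, and 21 had none at the 16-cell stage.

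Frequencies at shared sites differed little in most windows. In the 342 windows with at least 5 shared sites the median difference of a window ranged from -14.9 to 14.2 points, with quartiles at -1.62 and 2.50, and was above 0 in 175 and below 0 in 154. All shared sites were higher at 3.5 hpf in 4 of these windows, and all were lower in 2. The named windows that follow are those at both ends of that range.

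Among the 5 windows with the largest upward median difference, march8 had the most shared sites. It encodes a membrane-bound ubiquitin ligase. Of its 14 shared sites, 12 were higher at 3.5 hpf and 1 was lower, and their medians were 59.4% at 3.5 hpf and 36.5% at the 16-cell stage. The largest difference was 39.2 points, with 76.2% at 3.5 hpf and 37.0% at the 16-cell stage at position 17624020 of chromosome 13. Its neighbour at 17624021 had 66.7% at 3.5 hpf and 35.7% at the 16-cell stage. At 5.3 hpf these positions had 25.0% and 54.5%. The window of dars, the aspartyl-tRNA synthetase gene, had medians of 41.7% at 3.5 hpf and 28.6% at the 16-cell stage over 7 shared sites, of which 5 were higher at 3.5 hpf. In zgc:91897, 7 of 8 shared sites were higher at 3.5 hpf, with medians of 36.2% at 3.5 hpf and 26.3% at the 16-cell stage. For sh3bp5b (55.4% at 3.5 hpf and 38.9% at the 16-cell stage) and zgc:113944 (51.5% at 3.5 hpf and 31.3% at the 16-cell stage) the medians rested on 8 and 5 shared sites. In sh3bp5b 3 of these were lower at 3.5 hpf, and in zgc:113944 1 was. Taken site by site, the median difference was 11.7 points in march8, 14.2 in dars and 12.2 in zgc:91897. It was 9.52 points in sh3bp5b and 9.49 in zgc:113944.

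Among the 5 windows with the largest downward median difference was znf800b, a zinc finger gene on chromosome 4, where all 5 sites of the window were shared and lower at 3.5 hpf. Their frequencies in order of position were 52.4%, 30.0%, 28.6%, 30.4% and 60.9% at 3.5 hpf, against 76.7%, 35.7%, 42.4%, 41.9% and 71.0% at the 16-cell stage. At 5.3 hpf 4 of these sites were listed, at 20.0% to 50.0%, each lower again than at 3.5 hpf. In cdc14ab, a phosphatase of the cell cycle, 7 of 9 shared sites were lower at 3.5 hpf, and their medians were 45.5% at 3.5 hpf and 58.6% at the 16-cell stage. The windows of oxsr1b, a stress-responsive kinase (4 of 7 lower), smx5 (3 of 5 lower) and gopc, a Golgi protein (4 of 5 lower), held sites of both directions.

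**Figure D4:**
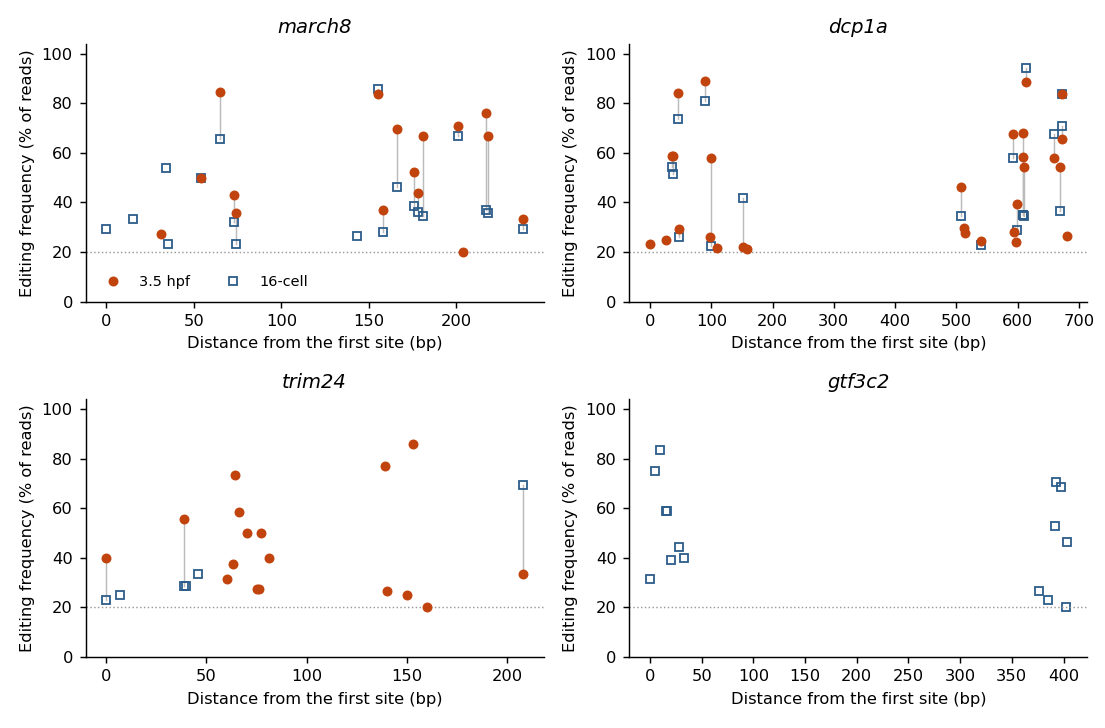
Editing frequency of each listed site, in percent of reads, in the windows of march8, dcp1a, trim24 and gtf3c2 by its distance in bp from the first site of the window. Filled circles are 3.5 hpf, open squares are the 16-cell stage, grey lines join the values of a shared site, and the dotted line is the lower limit of the lists at 20%. In march8 12 of 14 shared sites are higher at 3.5 hpf, in trim24 a run of 3.5 hpf sites has no 16-cell counterpart, and gtf3c2 has 16-cell sites alone.

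Over the 12 windows of genes for mRNA binding, decay and translation there were 113 sites at 3.5 hpf and 95 at the 16-cell stage, and 79 were shared. There were more sites at 3.5 hpf in 7 of these windows, fewer in 3 and the same number in 2. Of the 8 windows with at least 5 sites, 3 had at least 1.5 times as many at 3.5 hpf and none at the 16-cell stage, beside 13.0% and 10.3% of all such windows. The largest of these was dcp1a, a cofactor of mRNA decapping, with 29 sites at 3.5 hpf and 19 at the 16-cell stage, and the others rested on a few sites each. All 19 sites of the 16-cell stage were listed again at 3.5 hpf, and the 10 new ones had frequencies of 21.1% to 29.6%, close to the lower limit. The shared sites of dcp1a had a median difference of 7.94 points, with 68.0% at 3.5 hpf and 35.1% at the 16-cell stage at position 53019740 of chromosome 8.

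The mRNA-binding gene igf2bp1 had 6 sites at 3.5 hpf and 4 at the 16-cell stage, and the Tudor domain gene tdrd3 had 5 at 3.5 hpf and 3 at the 16-cell stage. Their shared sites were lower at 3.5 hpf by their median (-13.5 points over 3 sites in igf2bp1 and -10.7 points over 3 in tdrd3), unlike those of dcp1a. The window of rbpms2a, an RNA-binding protein of the germ line, had 4 sites at 3.5 hpf, from 20.0% to 24.0%, and none at the 16-cell stage. The window of eif4e1b, a cap-binding protein of oocytes, had 19 sites at 3.5 hpf and 23 at the 16-cell stage.

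The 8 windows of Wnt pathway genes held 84 sites at 3.5 hpf and 91 at the 16-cell stage, with more sites at 3.5 hpf in 4 windows, fewer in 3 and the same number in 1. Among all windows with at least 5 sites, 13.0% had at least 1.5 times as many at 3.5 hpf and 10.3% at the 16-cell stage. Of the 5 such Wnt windows, none had at least 1.5 times as many at 3.5 hpf and 3 did at the 16-cell stage. These windows of 5 to 11 different sites were the receptor genes fzd3b (3 sites at 3.5 hpf and 11 at the 16-cell stage) and fzd5 (4 at 3.5 hpf and 6 at the 16-cell stage) and daam1b (1 at 3.5 hpf and 5 at the 16-cell stage), a formin that acts below Dishevelled. In fzd3b the sites listed at both stages had 80.0%, 20.0% and 75.0% at 3.5 hpf, against 70.0%, 33.3% and 68.4% at the 16-cell stage, and the 8 others at the 16-cell stage ranged from 21.4% to 76.5%. The Wnt windows with most sites were nearly level, with 35 at 3.5 hpf and 32 at the 16-cell stage in tcf7l1b, a repressor of Wnt targets, and 31 at 3.5 hpf and 29 at the 16-cell stage in rnf146, a ligase that removes Axin.

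The list of dorsoventral, TGF-beta and Notch genes had the lowest overlap of the 9 lists, 33.5%, beside 61.6% within all windows. It had 135 sites at 3.5 hpf and 132 at the 16-cell stage. Of its 6 windows with at least 5 sites, 2 had at least 1.5 times as many at 3.5 hpf and none at the 16-cell stage. Among all such windows these shares were 13.0% and 10.3%. The 2 windows of this list were those of vent and pofut2, and the place of pofut2 among Notch genes was not established here. The member of this list with the most sites was pmepa1, an inhibitor of TGF-beta signalling, with 35 sites at 3.5 hpf and 42 at the 16-cell stage. Only 6 of its 71 different sites were in both, which lowers the overlap of the whole list. In twsg1a, a regulator of BMP, 37 sites were shared of 54 at 3.5 hpf and 52 at the 16-cell stage. The windows of vent and pofut2 had sites at 3.5 hpf but none at the 16-cell stage, as did 21 of all 685 windows. For vent, a ventral homeobox repressor, the 5 sites had 27.3%, 23.1%, 21.4%, 27.3% and 20.0% at 3.5 hpf, and only 2 of them had the orientation of the gene. The 6 sites of pofut2, an O-fucosyltransferase, ranged from 20.0% to 100% at 3.5 hpf, and 4 of them were listed again at 5.3 hpf.

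Receptor tyrosine kinase and FGF genes had 157 sites at 3.5 hpf and 164 at the 16-cell stage, with 63.8% shared. The receptor genes fgfr1a (66 at 3.5 hpf and 67 at the 16-cell stage) and igf1rb (45 at 3.5 hpf and 42 at the 16-cell stage) were nearly level. Of the 9 windows with at least 5 sites, 1 had at least 1.5 times as many at 3.5 hpf and 1 at the 16-cell stage, beside 13.0% and 10.3% of all such windows. The window with more at 3.5 hpf was that of extl3, a gene of heparan sulfate synthesis, with 6 sites at 3.5 hpf and 4 at the 16-cell stage. The window with fewer was that of sos1, an activator of Ras, with 1 site at 3.5 hpf and 8 at the 16-cell stage and none in common. The 7 of those 16-cell sites that lay within 20 bp had 100%, 40.0%, 100%, 20.0%, 100%, 100% and 40.0%. The 3.5 hpf site, 20 bp before them, had 20.0%.

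The remaining lists differed little in their totals. Cell cycle genes had 110 sites at 3.5 hpf and 121 at the 16-cell stage, with fewer at 3.5 hpf in cdk4 (13 at 3.5 hpf and 20 at the 16-cell stage) and in mybl2b, a Myb transcription factor (18 at 3.5 hpf and 27 at the 16-cell stage), and more in ska3 of the kinetochore (6 at 3.5 hpf and 2 at the 16-cell stage). Membrane traffic genes had 281 sites at 3.5 hpf and 279 at the 16-cell stage, and 1 of 12 windows with at least 5 sites, that of the Golgi tethering gene cog5, had 1.5 times as many at 3.5 hpf (16, against 9 at the 16-cell stage). Mitochondrial genes had 272 sites at 3.5 hpf and 294 at the 16-cell stage, with 2 of 15 such windows above and 1 below. This total includes tomm34, where 1 of 25 sites at 3.5 hpf and 3 of 23 at the 16-cell stage had the orientation of the gene. Its window overlaps that of ywhaba, whose orientation 24 sites had at 3.5 hpf and 20 at the 16-cell stage. Adhesion genes had 121 sites at 3.5 hpf and 112 at the 16-cell stage, with ctnna1, the alpha-catenin gene, at 5 at 3.5 hpf and 2 at the 16-cell stage. Zinc finger genes had 168 sites at 3.5 hpf and 182 at the 16-cell stage, with 3 at 3.5 hpf and 13 at the 16-cell stage in sp4. Of the 50 windows with at least 5 sites in these 5 lists, 6 (12%) had 1.5 times as many at 3.5 hpf and 4 (8%) at the 16-cell stage, close to the background of 13.0% and 10.3%.

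Over the chromosomes the lists were nearly proportional. Of the 25 chromosomes, 10 had more A>G sites at 3.5 hpf and 15 had fewer. The ratio of 3.5 hpf to 16-cell sites was lowest on chromosome 20 (948 at 3.5 hpf and 1068 at the 16-cell stage, 0.888) and highest on chromosome 4 (470 at 3.5 hpf and 429 at the 16-cell stage, 1.10). The mean difference at shared sites was above 0 on 17 chromosomes, from -0.927 points on chromosome 4 to 1.96 points on chromosome 25, with SDs over sites of 12.9 and 11.0. The mitochondrial genome had no A>G site in either list.

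Chromosome 4 stood at the end of several of these orders. Its share of A>G sites in both lists was the lowest, 50.6% (46.6% to 54.6%), against a median of 58.1% over chromosomes and 65.0% (61.9% to 67.9%) on chromosome 1, which had the highest. Sites with another change were also shared least there, at 25.4% (20.5% to 31.0%), and numbered 188 at 3.5 hpf and 138 at the 16-cell stage. The lower sharing on chromosome 4 was thus present both for A>G sites and for the pooled other changes. A>G sites were the smallest part of the lists on chromosome 24, with 60.7% at 3.5 hpf and 63.0% at the 16-cell stage, and reached 84.8% on chromosome 8 at 3.5 hpf and 84.8% on chromosome 20 at the 16-cell stage.

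**Figure D5:**
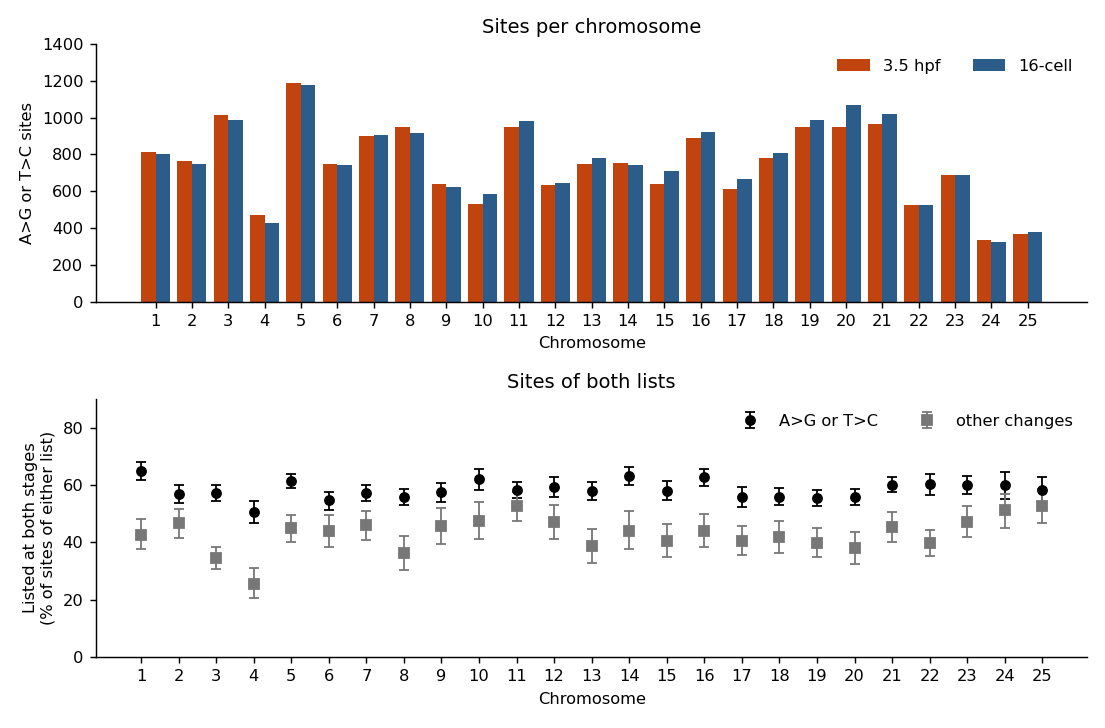
Top, sites with A>G or T>C on each chromosome, at 3.5 hpf (left bar) and at the 16-cell stage (right bar). Bottom, the percentage of the sites in either list that were in both, for A>G or T>C sites (black circles) and other changes (grey squares), with 95% Wilson intervals. Chromosome 4 is lowest for both kinds, with 50.6% for A>G sites and 25.4% for other changes.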

How the data were processed

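RNA of offspring at 3.5 hpf and at the 16-cell stage was analysed, with 1 library each. The authors found mismatches with REDiscover on reads aligned to GRCz10, with a mapping quality of at least 15, a base quality of at least 20, homozygous parents, a single alternative base in at least 20% of RNA reads, and a minimum coverage of 10 reads. The deposited value of a site is a fraction, the reads with the new base over all RNA reads there. Per the submitters' processing notes, STAR 2.7.7a and SAMtools 1.11 were among the tools used. Because the lists start at 20%, changes that cross this limit appear as gained or lost sites.

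Lists were matched on chromosome, position and change, and positions were counted from 1. Clusters chained sites of the same change at most 100 bp apart. Only names, strands and coordinates of the windows were taken from the authors' table. Frequencies were compared as percentage points, and shares were given with 95% Wilson intervals, in Python 3.11.15 with numpy 2.4.6, pandas 2.3.3 and matplotlib 3.10.9. With 1 library for each stage no test was made. The functions were tested on simulated data. Alternatives were 50 bp and 200 bp for clusters, a frequency of at least 0.3, each change alone, sites on the gene's strand and windows listed at both stages.

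Named windows were the 5 with the most sites, the 5 with the largest gain and the 5 with the largest loss of sites, and, with at least 5 shared sites, the 5 with the largest rise and the 5 with the largest fall of the median difference. Named clusters were the 5 largest and the 3 largest of each stage alone. Members of the gene lists were also named, except an item that is not reported here. The members and lists were chosen with earlier results of these data known. The tables of 12 hpf and 7 dpf were not used here.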

Additional observations from a re-analysis of the deposited data

How the results depend on the processing

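At a frequency of at least 0.3 the A>G share was 78.3% at 3.5 hpf and 78.4% at the 16-cell stage. The share of sites in both lists was 56.8% for A>G alone and 59.6% for T>C alone. The share of A>G sites in clusters of 5 or more was 61.9% at 3.5 hpf and 62.5% at the 16-cell stage with neighbours at most 50 bp apart, and 78.2% at 3.5 hpf and 78.2% at the 16-cell stage at 200 bp. The share in windows was 44.2% at 3.5 hpf and 44.0% at the 16-cell stage on the gene's strand, and 43.4% at 3.5 hpf and 43.1% at the 16-cell stage in windows listed at both stages. With no site of any change within 100 bp, an alternative chosen after seeing the data, single sites were shared at 37.4% for A>G and at 25.3% for other changes. In 23 of 37 alternatives the value stayed within its interval, or within 1.5 times for a count. No paired analysis was possible because each stage had 1 library. Without coverage or replicates, the difference of a single site or window between the stages cannot be set against an error.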
